A study of Mus musculus with 16 samples.

Results

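Collagens were followed in mouse hearts after social stress through every collagen chain gene on the array, taken as the noncontrol spots whose gene name has the form Col, a number, a and a number. This gave 43 chains on 68 probes, of 35080 feature names in all, and 31 of them were bright enough to be tested among 22763 features. By structural class the tested chains were 8 of 11 fibrillar chains, 6 of 6 basement membrane chains, 8 of 9 FACIT chains (fibril-associated collagens), 3 of 6 beaded filament chains and 6 of 11 other chains. The classes are textbook ones, and 25 of the 43 chains have 1 probe.

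The study modelled posttraumatic stress disorder in C57BL/6 mice, which were kept in a mesh box in an aggressor's cage and let out into it for brief attacks. Whole heart RNA of 1 mouse was read on each of 16 arrays of 1 colour, 4 arrays a group. Control mice sat in mesh boxes in a cage with no aggressor and carry the label of the arm with 2 days of exposure and 1 day of rest. T1R1, T2R1 and T3R1 mice had 1, 2 and 3 days of exposure, each followed by 1 day of rest. The ages and sexes are not used here, no genotype differs between groups, and the treatment text of the labels describes longer exposures than the group names, which were followed.

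Collagens are secreted proteins whose chains wind around each other in groups of 3, with glycine recurring along the helix. Fibrillar collagens, above all types I and III, bear the tension of the heart wall and are made mainly by cardiac fibroblasts; type V is built into the same fibrils. Type IV collagen is the sheet of the basement membrane around cardiomyocytes and vessels, type VI forms beaded filaments beside it, and FACIT collagens sit on the surface of fibrils.

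3 sequences tie these chains to what was read. The first is a 60-base probe of Col15a1, shown because it reads the helix itself; its recurring glycine codons are in capitals (mm9 chr4:47283786-47283845, plus strand, as given by the array design).
Col15a1 probe: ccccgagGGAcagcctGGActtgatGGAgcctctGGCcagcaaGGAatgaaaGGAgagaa
The next is the 250 bases before the annotated start of Col1a2, a gene called below, with the CCAAT motif in capitals, 109 bases before the start (RefSeq, GRCm38.p6 chr6:4505368-4505617, plus strand).
Col1a2 upstream: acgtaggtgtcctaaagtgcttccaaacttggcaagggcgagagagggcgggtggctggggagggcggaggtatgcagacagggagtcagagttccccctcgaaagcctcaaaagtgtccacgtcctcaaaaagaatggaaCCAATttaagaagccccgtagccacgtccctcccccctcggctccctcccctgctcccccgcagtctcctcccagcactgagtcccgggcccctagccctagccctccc
The last covers the facing starts of Col4a1 and Col4a2, which lie 21 bases apart on opposite strands, with the stretch from the first start to the other in capitals (RefSeq, GRCm38.p6 chr8:11312801-11312830, plus strand).
Col4a1 and Col4a2 starts: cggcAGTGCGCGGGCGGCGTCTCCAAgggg
CCAAT on either strand (CCAAT or ATTGG) was present in the 250 upstream bases of 13 of 38 collagen promoters (34.2%), close to the 33.8% of all 32851 promoters. The upstream bases of Col3a1 do not hold it, and Col1a1 was not matched.

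Values are log2 signals relative to the 75th percentile of their array, given in the order of replicates 1 to 4, and a level of 1 probe is not set against that of another. There were 2 slides, each scanned on its own: 1 carried the control and T3R1 arrays and the other the T1R1 and T2R1 arrays, so exposure cannot be told apart from slide in any contrast that crosses these pairs. Between 46.5% and 67.1% of spots were well above background. Control replicate 1 stood apart: the 75th percentile of its signals was 551 scanner units, against 258 to 273 in the other control arrays, and over all genes it correlated at 0.988 on average with T3R1, against 0.970 with its fellow controls. Counts of called genes against control are therefore also given without it. It was singled out for this likeness, so leaving it out tends to widen the differences between T3R1 and control. The counts without it are no separate support. All 8 cardiomyocyte markers (Myh6, Actc1, Tnnt2 and others) were above background on all 16 arrays.

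The T3R1 contrast with control asks how the heart stands 1 day after 3 days of exposure, on a single slide. Chains of the large fibrils rose together: Col1a1, Col1a2, Col3a1 and Col5a1 were between 3.52-fold and 5.75-fold higher in T3R1. Col6a1 and Col6a2 of the beaded filaments, Col16a1 of the FACIT class and the multiplexin Col15a1 rose between 2-fold and 2.52-fold. In all 8 of 31 chains passed, each higher (25.8%, where 0.505% of all features passed upward), and 0 were called lower. An unadjusted p under 0.05 was reached by 21 chains. The median difference over the 31 chains was 0.85 on the log2 scale, where the median of all features was -0.08. In a whole-heart sample, a change in the number of cells that make a transcript and a change in the transcript per cell cannot be told apart.

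Leaving out control replicate 1, 20 of 31 chains passed, all higher (64.5%, where 10.2% of all features passed upward), and these held all 8 chains called with it. That control array was the closest to T3R1, so the larger count follows in part from the choice. Fewer passed when another array was left out: 0 without control replicate 2, 3 or 4 or without T3R1 replicate 1 or 3 (19 to 21 chains had an unadjusted p under 0.05, and limma called 3 to 18 features in all), and 5 without T2R1 replicate 3 or T3R1 replicate 2. A fit of control and T3R1 alone called 0 chains (21 with an unadjusted p under 0.05, 2 features called in all), and 19 once control replicate 1 was left out of it. The 8 called chains were higher in T3R1 in every fit run.

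**Figure D1:**
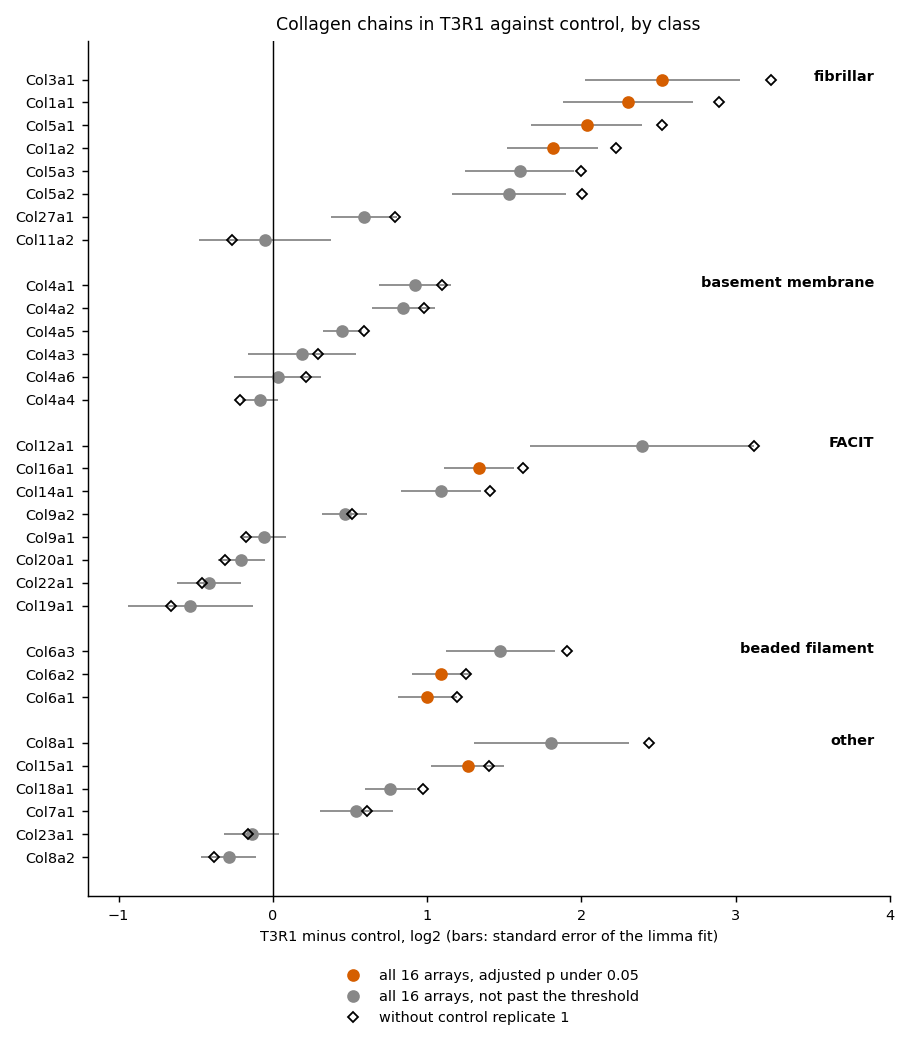
Difference in log2 signal, T3R1 minus control, for the 31 tested chains (rows, by class); filled circles use all 16 arrays, with the standard error of the limma fit as bars, coloured where the adjusted p is under 0.05, and open diamonds leave out control replicate 1. Fibrillar chains reach 2.52 with all arrays and 3.23 without that array, and the basement membrane chains reach 0.92 and 1.09.

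Among fibrillar chains, 4 of 8 rose in T3R1 (7 without control replicate 1), and the class median was 1.71. Col1a1, the main chain of type I collagen, read 5.71, 3.30, 3.31 and 3.38 in control, 3.10, 4.02, 3.82 and 3.67 in T1R1, 4.58, 4.92, 4.80 and 4.61 in T2R1, and 6.42, 5.95, 6.45 and 6.08 in T3R1. The T3R1 arrays were the highest of the 16, control replicate 1 came next, and the other controls lay with T1R1. The means were 6.23 ± 0.25 in T3R1 and 3.92 ± 1.19 in control (SD, n = 4 each), a difference of 2.30 ± 0.42 (SE), or 4.93-fold, with an adjusted p of 0.0272. It was 2.90, or 7.44-fold, without control replicate 1.

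Col1a2, the other chain of type I collagen, whose upstream bases are printed above, followed the same order, with 7.06, 5.40, 5.36 and 5.50 in control, 5.11, 5.56, 5.54 and 5.47 in T1R1, 6.04, 6.36, 6.16 and 6.16 in T2R1, and 7.89, 7.36, 7.75 and 7.58 in T3R1. Its difference was 1.81 ± 0.29 (adjusted p = 0.0232), and 2.22 without control replicate 1. Col3a1, the chain of the thinner, more pliable type III fibrils, read 6.15, 3.12, 3.40 and 3.46 in control, 3.25, 4.50, 4.07 and 3.93 in T1R1, 5.23, 5.29, 5.18 and 5.06 in T2R1, and 6.94, 6.34, 6.65 and 6.30 in T3R1. The 4 T2R1 arrays stood between the 3 lower controls and T3R1, and no T3R1 array overlapped a control. The means were 6.56 ± 0.30 in T3R1 and 4.03 ± 1.42 in control, a 5.75-fold difference (2.52 ± 0.50, adjusted p = 0.0377), and 9.39-fold without control replicate 1.

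Type V collagen sets the width of type I fibrils. Its α1 chain Col5a1 read 3.08, 1.10, 1.16 and 1.12 in control, 0.86, 1.81, 1.51 and 1.41 in T1R1, 2.11, 2.45, 2.28 and 2.14 in T2R1, and 3.94, 3.43, 3.81 and 3.43 in T3R1, with a difference of 2.04 ± 0.36 (adjusted p = 0.0262). Its partner Col5a2 read -0.04, -1.99, -1.85 and -1.93 in control, -2.40, -1.13, -1.89 and -1.58 in T1R1, -1.50, -1.32, -1.57 and -1.47 in T2R1, and 0.26, -0.07, 0.37 and -0.25 in T3R1. Control replicate 1 lay among the T3R1 arrays here, and the difference of 1.53 ± 0.37 did not pass (adjusted p = 0.0614). Col5a3, the rarer α3 chain, read 2.16, 0.35, 0.58 and 0.73 in control, 0.35, 1.66, 1.04 and 0.50 in T1R1, 1.39, 1.89, 1.54 and 1.50 in T2R1, and 2.86, 2.51, 2.70 and 2.16 in T3R1, and its difference of 1.60 ± 0.35 just missed the threshold (adjusted p = 0.053). Both chains passed without control replicate 1, at 2.00 and 2.00.

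Col27a1, a fibrillar chain best known from cartilage, was dim, with -2.14, -2.73, -3.11 and -3.02 in control, -3.19, -2.96, -3.30 and -3.22 in T1R1, -3.42, -2.84, -3.22 and -2.59 in T2R1, and -2.01, -2.40, -1.94 and -2.28 in T3R1, above background on 3 of 4 T1R1 arrays and on all others. Its difference was 0.59 ± 0.21 (adjusted p = 0.131), and 0.80 without control replicate 1, where it passed. Col11a2, the remaining tested fibrillar chain, was above background on 12 of 16 arrays and did not pass (-0.05 ± 0.43). Col2a1 and Col11a1, the cartilage fibril chains, and Col24a1 were above background on 1, 1 and 0 of 16 arrays, so they were not tested. The 7 fibrillar chains other than Col11a2 all had a positive difference in T3R1 under each scaling tried.

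**Figure D2:**
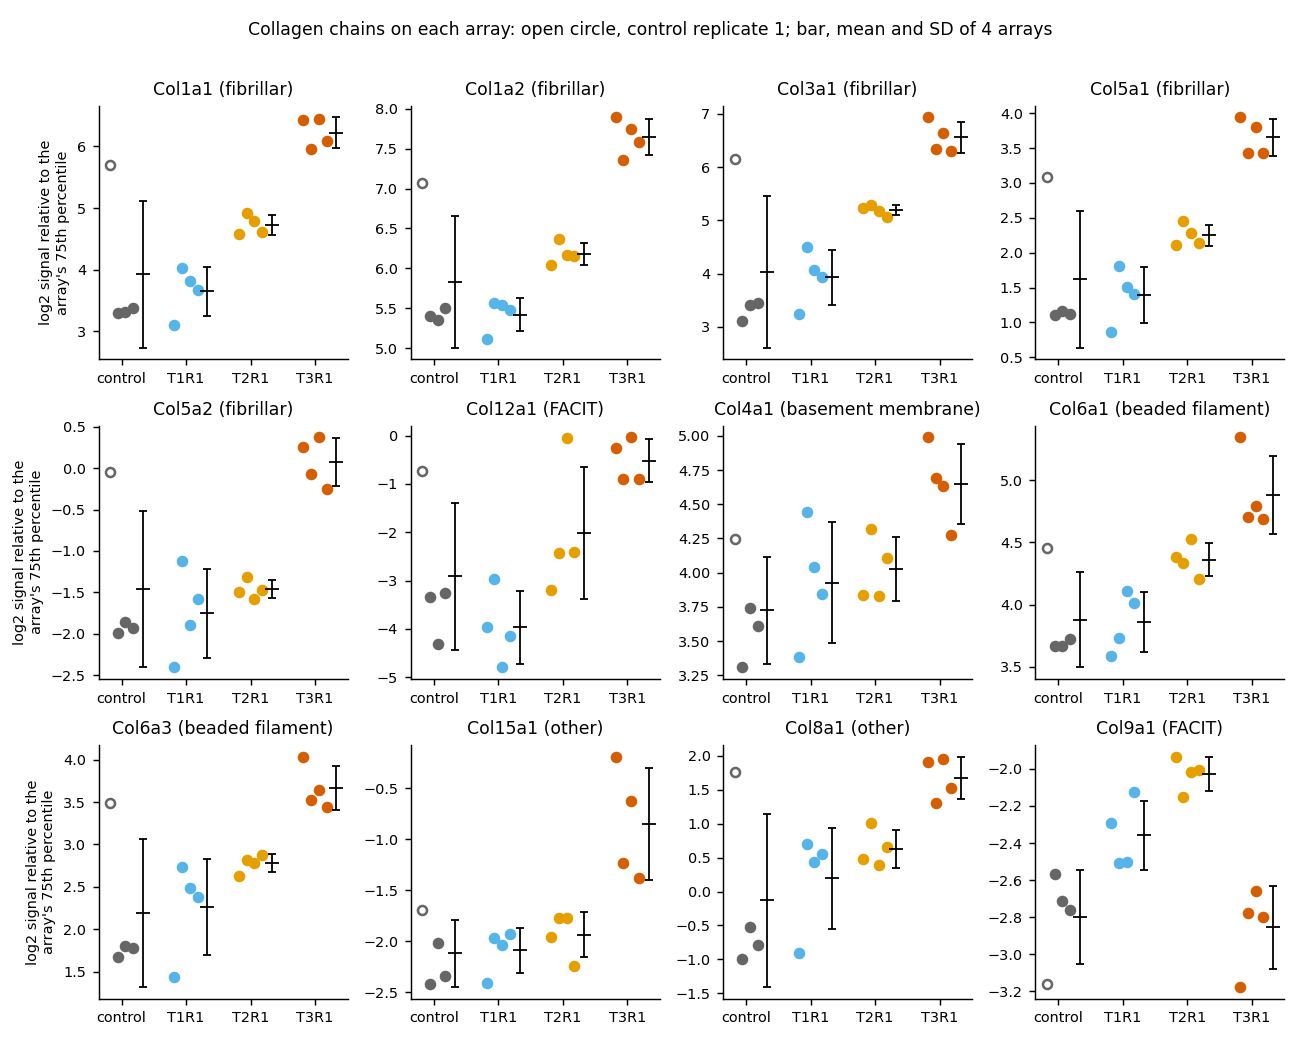
Log2 signal relative to the array's 75th percentile (vertical axes, each with its own range) for 12 chains on each array; groups run from control to T3R1, the open circle is control replicate 1, and the bar gives the mean and SD of 4 arrays. For Col1a1 the T3R1 arrays lie between 5.95 and 6.45 and control replicate 1 at 5.71, while Col9a1 is highest in T2R1, between -2.15 and -1.93.

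Of the basement membrane chains 0 of 6 passed in T3R1 with all arrays (3 had an unadjusted p under 0.05). The class median was 0.32. Col4a1 and Col4a2, which build the common form of type IV collagen and whose facing starts are shown above, were each higher on all 4 T3R1 arrays than on any control. Col4a1 read 4.24, 3.31, 3.74 and 3.61 in control, 3.38, 4.44, 4.04 and 3.84 in T1R1, 3.84, 4.32, 3.83 and 4.11 in T2R1, and 4.99, 4.69, 4.63 and 4.28 in T3R1, a difference of 0.92 ± 0.23 (adjusted p = 0.0644). Col4a2 read 4.55, 3.74, 4.22 and 4.12 in control, 4.05, 5.07, 4.73 and 4.64 in T1R1, 4.45, 4.92, 4.50 and 4.72 in T2R1, and 5.24, 5.06, 4.96 and 4.77 in T3R1, a difference of 0.85 ± 0.21 (adjusted p = 0.0614). T1R1 replicate 2 reached as high as the T3R1 arrays in Col4a2, and T1R1 replicate 1 lay with the controls.

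Col4a5, a type IV chain mutated in Alport syndrome, read 1.49, 0.94, 0.95 and 0.87 in control, 0.73, 1.09, 0.96 and 0.84 in T1R1, 1.11, 1.05, 0.94 and 0.92 in T2R1, and 1.57, 1.42, 1.63 and 1.44 in T3R1. Control replicate 1 lay among the T3R1 arrays and the other 3 controls below them, and the difference was 0.45 ± 0.13 (adjusted p = 0.0788). Without control replicate 1, Col4a1, Col4a2 and Col4a5 passed, at 1.09, 0.98 and 0.59. Col4a3, Col4a4 and Col4a6, the other type IV chains, did not pass in either fit, with T3R1 differences between -0.08 and 0.19 with all arrays, and of 0.29, -0.21 and 0.22 without control replicate 1. Over all groups Col4a4 ranged from -0.87 to -0.05 and Col4a6 from -2.30 to -0.36; Col4a3 was above background on 10 arrays.

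Of the beaded filament chains that link basement membrane to fibrils, Col6a1 and Col6a2 rose and Col6a3 did not pass. Col6a1 read 4.45, 3.67, 3.67 and 3.72 in control, 3.59, 3.73, 4.11 and 4.02 in T1R1, 4.38, 4.34, 4.52 and 4.20 in T2R1, and 5.35, 4.70, 4.79 and 4.69 in T3R1, a difference of 1.00 ± 0.19 (adjusted p = 0.0336). Col6a2 read 2.32, 1.66, 1.63 and 1.65 in control, 1.59, 1.85, 2.11 and 2.20 in T1R1, 2.52, 2.50, 2.68 and 2.40 in T2R1, and 3.39, 2.74, 2.70 and 2.78 in T3R1, a difference of 1.09 ± 0.19 (adjusted p = 0.0252). In both, T3R1 replicate 1 was well above the other T3R1 arrays, and control replicate 1 well above the other controls. Col6a3, the longest chain of type VI, read 3.49, 1.68, 1.81 and 1.78 in control, 1.44, 2.73, 2.48 and 2.38 in T1R1, 2.63, 2.82, 2.78 and 2.88 in T2R1, and 4.03, 3.53, 3.65 and 3.44 in T3R1, a difference of 1.47 ± 0.35 (adjusted p = 0.0614), and 1.91 without control replicate 1, where it passed. Col6a4, Col6a5 and Col6a6 were above background on 1, 2 and 10 arrays and were not tested. Another tested probe of Col6a2 differed by 0.34 ± 0.13 and did not pass (adjusted p = 0.166).

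In the FACIT class 1 of 8 chains passed with all arrays and 4 without control replicate 1, and the class median was 0.21. Col16a1, found near fibrils and cell surfaces, rose: it read 3.09, 1.99, 1.79 and 2.03 in control, 1.86, 2.19, 2.11 and 1.94 in T1R1, 2.27, 2.82, 2.51 and 2.63 in T2R1, and 3.77, 3.29, 3.61 and 3.56 in T3R1, a difference of 1.33 ± 0.23 (adjusted p = 0.024). The other tested probes of Col16a1 read 1.45 ± 0.42 and 1.26 ± 0.29 in T3R1, and limma called neither (adjusted p = 0.0929 and 0.0601). In T1R1 the first of them read 0.73 ± 0.42, where the probe that stands for the gene read -0.20 ± 0.23. Col12a1 and Col14a1, which decorate type I fibrils, did not pass, and control replicate 1 was level with or close to T3R1. Col12a1 read -0.74, -3.34, -4.30 and -3.27 in control, -3.96, -2.97, -4.80 and -4.14 in T1R1, -3.19, -2.43, -0.05 and -2.41 in T2R1, and -0.25, -0.90, -0.03 and -0.89 in T3R1; besides the T3R1 arrays, control replicate 1 and T2R1 replicate 3 were high, and 2 of 4 T1R1 arrays were above background. Its difference was 2.39 ± 0.72 (adjusted p = 0.093), the widest error among the chains tested. Col14a1 read 2.30, 0.95, 0.90 and 1.21 in control, 0.36, 0.45, 0.55 and 1.10 in T1R1, 1.48, 1.12, 1.36 and 1.16 in T2R1, and 2.67, 2.18, 2.48 and 2.40 in T3R1, a difference of 1.09 ± 0.26 (adjusted p = 0.0608). Without control replicate 1 both passed, at 3.12 and 1.41.

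Col9a1 and Col9a2, of the type IX collagen known from cartilage, were not called in T3R1 with all arrays, and Col9a2 passed at 0.51 without control replicate 1. Col9a1 read -3.16, -2.57, -2.71 and -2.76 in control, -2.29, -2.51, -2.50 and -2.13 in T1R1, -1.93, -2.15, -2.02 and -2.01 in T2R1, and -3.18, -2.78, -2.66 and -2.80 in T3R1: every T1R1 and T2R1 array was above every control, and T3R1 lay with control. Col9a2 read -2.26, -2.29, -2.56 and -2.49 in control, -2.01, -2.12, -1.99 and -1.78 in T1R1, -2.02, -1.61, -1.52 and -1.84 in T2R1, and -1.93, -2.34, -1.76 and -1.71 in T3R1, again with all T2R1 arrays above control. Col20a1 read -2.88, -2.46, -2.49 and -2.42 in control, -2.30, -2.40, -2.20 and -2.19 in T1R1, -2.22, -2.08, -2.15 and -2.03 in T2R1, and -2.43, -3.15, -3.01 and -2.47 in T3R1. Col22a1, a chain of tissue junctions such as that of muscle and tendon, read -3.07, -2.51, -2.80 and -3.38 in control, -1.87, -2.61, -2.28 and -2.49 in T1R1, -2.50, -2.47, -2.95 and -2.62 in T2R1, and -3.65, -3.43, -3.37 and -2.97 in T3R1. Their T3R1 differences were -0.20 ± 0.15 and -0.41 ± 0.21 and did not pass. The other tested probe of Col20a1 disagreed in sign in T1R1 (-0.25, against 0.29) and T2R1 (-0.11, against 0.44), and read -0.52 ± 0.14 in T3R1. Col19a1, above background on 11 arrays, was also not called (-0.53 ± 0.41), and Col9a3 was above background on 1 array and not tested.

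Among the 6 other chains Col15a1 rose (3 passed without control replicate 1). It is a multiplexin of vessel and muscle basement membranes, and it read -1.70, -2.42, -2.01 and -2.34 in control, -2.41, -1.97, -2.04 and -1.93 in T1R1, -1.96, -1.77, -1.78 and -2.24 in T2R1, and -0.19, -1.23, -0.62 and -1.38 in T3R1; each T3R1 array was above each control. Its difference was 1.26 ± 0.24 (adjusted p = 0.0313), and its other tested probes gave 1.11 ± 0.21 for the helix probe printed above (adjusted p = 0.0337) and 1.09 ± 0.24 for the third (adjusted p = 0.0527). Col18a1, the multiplexin that yields endostatin, read 1.73, 0.85, 0.90 and 0.93 in control, 0.81, 1.13, 0.85 and 0.78 in T1R1, 1.23, 1.37, 1.28 and 1.33 in T2R1, and 2.06, 1.67, 1.91 and 1.81 in T3R1, a difference of 0.76 ± 0.17 (adjusted p = 0.0516). Only control replicate 1 overlapped T3R1 in Col18a1, which passed at 0.97 without it.

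Col8a1, a short-chain collagen made in vessel walls, read 1.77, -0.99, -0.52 and -0.79 in control, -0.91, 0.70, 0.44 and 0.55 in T1R1, 0.48, 1.02, 0.39 and 0.65 in T2R1, and 1.91, 1.30, 1.95 and 1.53 in T3R1. T1R1 replicate 1 and control replicates 2 to 4 were low and the rest positive, and the difference was 1.81 ± 0.50 (adjusted p = 0.0778), or 2.44 without control replicate 1, where it passed. Its partner Col8a2 read -3.57, -3.04, -3.05 and -3.44 in control, -2.12, -2.38, -3.04 and -2.45 in T1R1, -2.39, -2.55, -2.09 and -2.36 in T2R1, and -3.66, -3.49, -3.65 and -3.44 in T3R1; it was above background on 15 arrays, and its T3R1 difference was -0.28 ± 0.18 (adjusted p = 0.354). The other tested probe of Col8a2 disagreed, with 1.12 ± 0.36 in T3R1 (adjusted p = 0.112), so a direction for Col8a2 depends on the probe. Col7a1, the anchoring fibril chain, and the transmembrane Col23a1 did not pass (0.54 ± 0.24 and -0.14 ± 0.18). Col10a1, Col13a1, Col17a1, Col25a1 and Col28a1 were above background on 3, 1, 0, 9 and 1 arrays and were not tested.

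**Figure D3:**
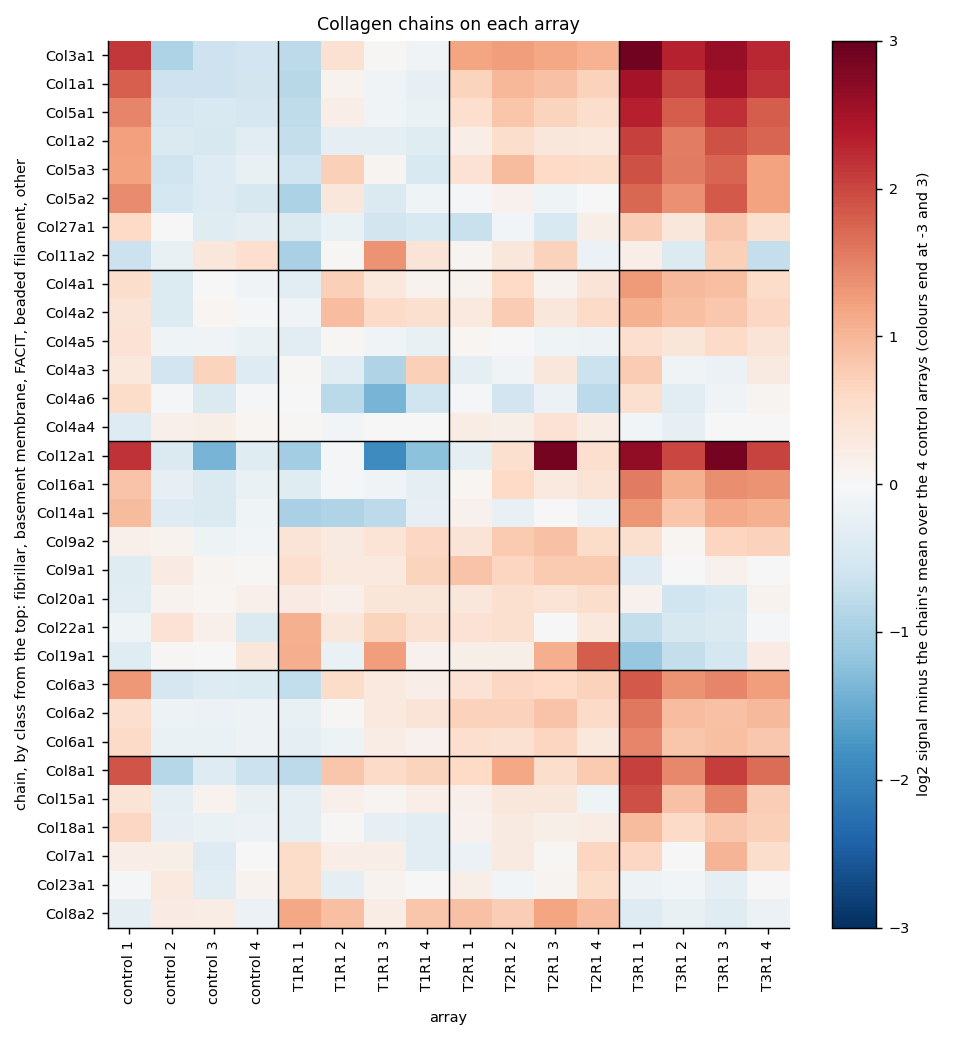
Log2 signal minus the chain's mean over the 4 control arrays, for 31 chains (rows, by class) on 16 arrays (columns, control to T3R1). Red is higher and blue lower; the upper fibrillar rows are red on the T3R1 arrays and on control replicate 1, where Col3a1 read 6.15, and the Col8a2 row is red on T1R1 and T2R1 arrays.

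In T1R1 against control 1 of 31 chains passed (3.23%, where 9.85% of all features passed in either direction), and 7 had an unadjusted p under 0.05. It was Col8a2, higher by 0.78 ± 0.18 (adjusted p = 0.0145), and its other tested probe read -0.80 ± 0.36 (adjusted p = 0.176). In the authors' deposited values Col8a2 passed in the opposite direction, at -0.62, so its direction depends on the probe and the processing. It was also the 1 chain called without control replicate 1, where 17.8% of all features passed in either direction. The fibrillar median was -0.25 with all arrays and 0.22 without control replicate 1, and 0 fibrillar chains passed in either fit (0 and 1 with an unadjusted p under 0.05). The call on Col8a2 was lost without T1R1 replicate 2, when 0 chains passed (4 with an unadjusted p under 0.05, limma calling 1642 features in all), while under median scaling 7 chains passed, all lower, where the median of all features was -0.44.

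In T2R1 against control 4 of 31 chains passed, all higher (12.9%, where 14.8% of all features passed upward), a share close to that of all features. They were Col6a2 at 0.71 ± 0.19 (adjusted p = 0.0179), Col8a2 at 0.93 ± 0.18 (adjusted p = 0.00289), Col9a1 at 0.77 ± 0.14 (adjusted p = 0.00202) and Col9a2 at 0.65 ± 0.15 (adjusted p = 0.00715). This contrast crosses the slides, and all T1R1 arrays, on the slide of T2R1, were also above every control in Col9a1 and Col9a2. The other tested probe of Col6a2 read 0.33 ± 0.13 and did not pass (adjusted p = 0.107). That of Col8a2 read -0.53 ± 0.36 (adjusted p = 0.349). A dimmer probe of Col4a6 was higher by 0.40 ± 0.10 (adjusted p = 0.012) while the one that stands for the gene read -0.39 ± 0.28. Without control replicate 1, 15 chains passed, all higher (48.4%, where 15% of all features passed upward), among them Col1a1 at 1.40, Col3a1 at 1.86 and Col5a1 at 1.12; the 4 chains called with it were among these. With median scaling 1 chain was higher and 1 lower, and the median of the chains, 0.35 with the 75th percentile, was -0.04, where that of all features was -0.37.

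T2R1 and T1R1, which shared a slide, were compared with each other. Of the 31 chains 0 passed (0% of all features did, and limma called 0 of 22763), although 12 had an unadjusted p under 0.05 and 29 had a positive difference, with a median of 0.29. All T2R1 arrays lay above all T1R1 arrays in Col1a1, Col1a2, Col3a1 and Col5a1, with differences of 1.07, 0.76, 1.26 and 0.85. Across the 4 groups together, 23 of 31 chains passed the F test (74.2%, where 26.9% of all features did), and 25 without control replicate 1 (80.6%, where 48.8% did). In T3R1 against T1R1 18 chains were higher and 4 lower (7.65% and 15.2% of all features), and in T3R1 against T2R1 10 were higher and 6 lower (6.59% and 20.4%). These contrasts of T3R1 with T1R1 and T2R1 lie between slides, and they share arrays with the contrasts against control. The F test also includes the slide difference.

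Chains that assemble into 1 protein were compared on the 16 arrays after subtracting group means, for 9 pairs, with p values by permutation within groups (100000 resamples, adjusted over the pairs). Pairs of chains from different proteins were not compared, so whether these correlations are particular to partners was not tested. Col1a1 and Col1a2 varied together (r = 0.987, rho = 0.959, adjusted permutation p = 9e-05 for r and 0.00027 for rho), and so did Col4a1 and Col4a2 (r = 0.979, rho = 0.982, adjusted permutation p = 9e-05 for each). For Col5a1 and Col5a2 r was 0.967 and rho 0.929 (adjusted permutation p = 0.00236 and 0.00537), for Col6a1 and Col6a2 0.971 and 0.871 (0.00108 and 0.00554), and for Col6a1 and Col6a3 0.796 and 0.788 (0.0268 and 0.0239). With the 2 arrays farthest from the median left out, r was 0.952, 0.974, 0.911, 0.931 and 0.587 for these pairs in the same order, and the last no longer passed. The group means still held these 2 arrays, here and for the remaining pairs, which can raise r. With control replicate 1 left out before the means were taken, r was 0.914, 0.977, 0.893, 0.959 and 0.575. Within the control and T3R1 slide it was 0.993, 0.978, 0.991, 0.982 and 0.918, and within the T1R1 and T2R1 slide 0.943, 0.988, 0.895, 0.947 and 0.453.

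The remaining pairs did not pass. Col8a1 and Col8a2 ran opposite without passing (r = -0.597, rho = -0.594, adjusted permutation p = 0.0843 and 0.0608), and r was -0.407 with control replicate 1 and T1R1 replicate 1 left out, -0.718 within the first slide and -0.593 within the other. Col4a3 with Col4a4, Col4a5 with Col4a6 and Col9a1 with Col9a2 had r of 0.02, 0.23 and -0.01 and rho of 0.05, 0.11 and -0.05 (adjusted permutation p between 0.588 and 0.971).

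**Figure D4:**
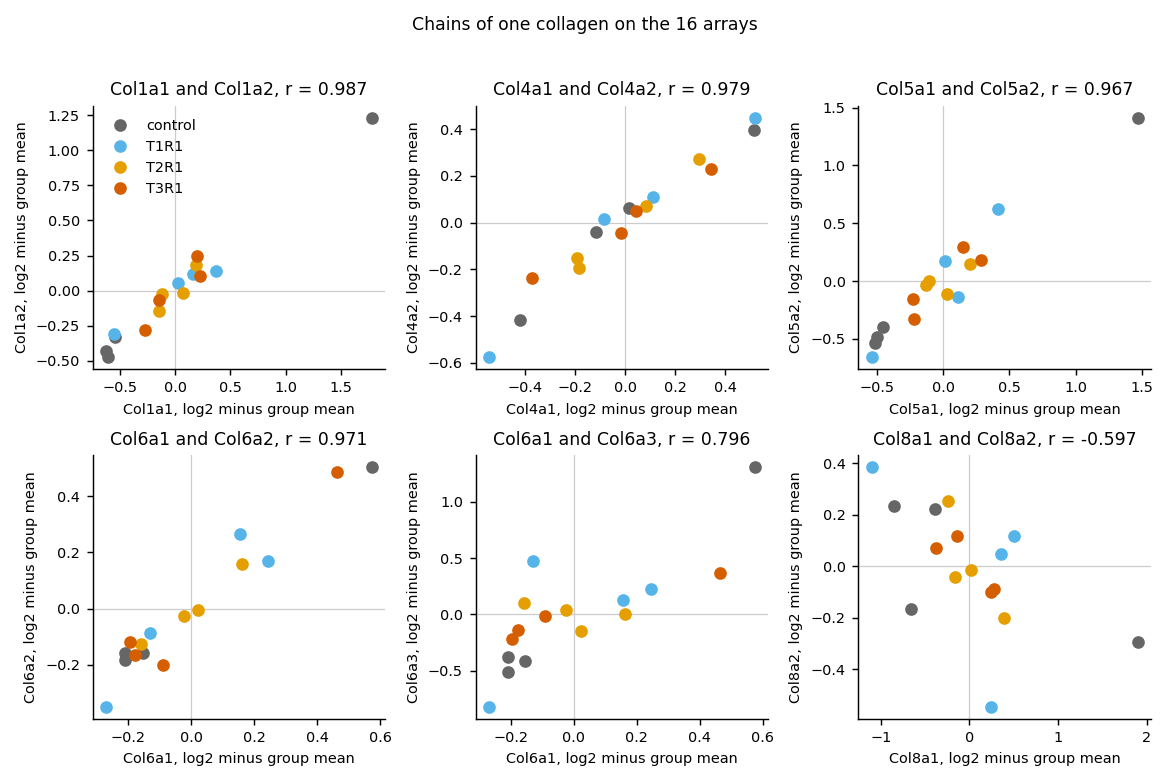
Log2 signal minus the group mean of the second chain (vertical) against the first (horizontal) on 16 arrays, coloured by group, for 6 pairs of chains of 1 collagen. The type I, IV and V pairs and Col6a1 with Col6a2 follow a line (r of 0.967 to 0.987), with control replicate 1 the farthest point to the upper right for types I and V.

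Other genes of the collagen pathway, from enzymes and chaperones to receptors and uptake genes, were looked at from 4 lists. For T3R1 against control, 11 of 37 tested genes of the 40 listed were higher, where 0.505% of all features were, and 0 were lower. Without control replicate 1, 27 were higher and 1 lower, where 10.2% of all features were higher and 19.2% lower. The same shares apply to the counts of the 4 lists. Of the genes for folding and modification 3 of 17 passed with all arrays (11 higher and 1 lower without control replicate 1): Crtap (0.50 ± 0.09, SE, adjusted p = 0.0272), of the prolyl 3-hydroxylase complex, Fkbp10 (0.75 ± 0.15, adjusted p = 0.0392), a chaperone of type I collagen, and P3h3 (0.72 ± 0.15, adjusted p = 0.0423). Serpinh1, the collagen chaperone HSP47, read 0.53 ± 0.20 and did not pass.

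Of the genes that secrete and trim procollagen, 5 of 7 passed with and without control replicate 1. Bmp1, which cuts off the C-terminal propeptide, was higher by 0.70 ± 0.12 (adjusted p = 0.024), and its helper Pcolce by 0.81 ± 0.16 (adjusted p = 0.0354). Adamts2 and Adamts14, which cut off the N-terminal propeptide, were higher by 1.29 ± 0.26 and 1.02 ± 0.21, and Sparc, which binds collagen, by 0.80 ± 0.16. Of the 5 crosslinking genes, which join fibrils covalently, 3 passed (5 without control replicate 1): Loxl2 at 2.52 ± 0.52 (adjusted p = 0.0423), Loxl3 at 1.71 ± 0.36 (adjusted p = 0.0478) and Lox at 3.93 ± 0.83 (adjusted p = 0.0486), which was above background on 3 of 4 control arrays. Loxl4 was above background on 2 of 4 control arrays. Lox and Loxl4 were kept only through T2R1 and T3R1. Their calls and sizes, and the counts that hold them, rest in part on control values near background. Of 8 tested receptor and uptake genes limma called 0 with all arrays and 6 higher without control replicate 1, with Itgb1, the integrin β1 chain, at 0.79 ± 0.20 (adjusted p = 0.0651) with all arrays, where 4 of the 8 had an unadjusted p under 0.05.

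In T2R1 against control 3 of the 37 genes were higher and 1 lower, where 14.8% and 3.58% of all features were, and in T1R1 1 was lower, where 9.85% of all features passed in either direction. These shares are not above the background. Without control replicate 1 there were 14 higher and 2 lower in T2R1 (15% and 9.38% of all features), and 2 higher and 2 lower in T1R1 (17.8% in either direction). Lox family members had control replicate 1 near T3R1: the list's median on it was 1.61 above the control mean, against -0.74 to -0.49 on the other controls, and the T3R1 arrays lay between 1.53 and 2.25.

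Markers of cells that make or surround collagen were read beside these results, as medians of each list relative to the control mean. Activated fibroblast markers (Postn, Cthrc1, Acta2, Tnc, Comp and Ltbp2, all tested) lay between 2.35 and 3.13 on T3R1 arrays, at 2.47 on control replicate 1 and between -1.03 and -0.56 on the other controls. Of the 6, Postn was called in T3R1 (3.08 ± 0.64, adjusted p = 0.0442), and so was Cthrc1 (adjusted p = 0.0471), which was above background on all 4 T3R1 arrays and 1 of 4 control arrays, so that the size of its difference is not given. All 4 of these markers other than Acta2 and Comp were called without control replicate 1. Of them, Tnc was kept only through T3R1, and Cthrc1 only through T2R1 and T3R1. The calls on these genes and the list medians therefore rest in part on control values near background. Ltbp2 read 2.51 ± 0.58 and did not pass, nor did Tnc, above background on all 4 T3R1 arrays and 1 of 4 control arrays. Acta2 and Comp read 0.32 ± 0.14 and -0.07 ± 0.18 in T3R1 and did not pass. Both were called lower in T1R1 (-0.92 ± 0.14 and -0.68 ± 0.18) and in T2R1 (-0.48 ± 0.14 and -1.01 ± 0.18). The 9 general fibroblast markers were closer to the controls, between 0.04 and 0.35 in T3R1 and between -0.07 and 0.21 in control, with 2 called higher (Cd248 and Mfap5), and 4 higher and 1 lower without control replicate 1.

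The 5 tested cell cycle genes lay between 2.62 and 3.26 on T3R1 arrays, at 3.45 on control replicate 1 and between -1.36 and -0.56 on the other controls, and 0 of 5 were called by limma in T3R1 (5 had an unadjusted p under 0.05, and 5 were called without control replicate 1). Of these genes, Top2a and Ccnb1 were above background on 2 of 4 control arrays each and Cdk1 on 3 of 4. They were kept only through T2R1 and T3R1, so the sizes for this list and its calls are uncertain. Macrophage markers lay between 0.54 and 0.94 in T3R1 and at 1.06 on control replicate 1, with 0 of 5 called by limma (3 with an unadjusted p under 0.05) and 4 higher without that array. The 8 cardiomyocyte markers had medians between -0.55 and -0.07 in T3R1 and of -0.72 on control replicate 1, and limma called 0 of 8 in T3R1 with all arrays (1 had an unadjusted p under 0.05). Of the 8, 6 were called lower without control replicate 1 (19.2% of all features were), with a list median of -0.51. Endothelial, smooth muscle and mesothelial lists lay between -0.33 and 0.25 in T3R1. Of the 9 cartilage and valve markers 6 were tested, and Acan, Sox9, Prg4 and Cytl1 were above background on all 16 arrays, Cnmd on 14, Ucma on 8, Hapln1 on 5, Matn3 on 1 and Matn1 on 0. The part of these cell types in the collagen results was not tested.

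**Figure D5:**
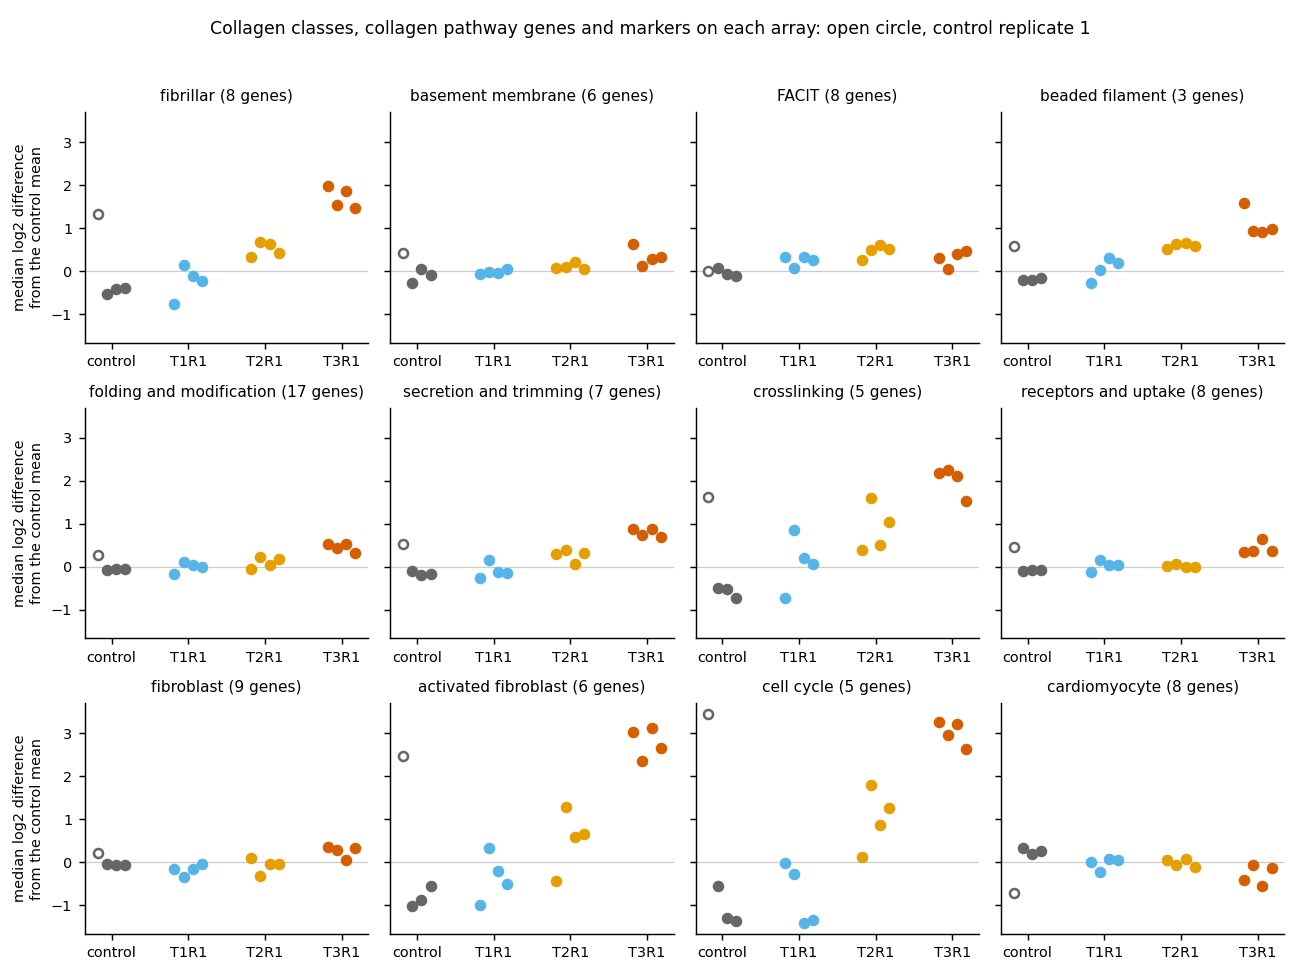
Median log2 difference from the control mean (vertical axis, shared) of 12 gene lists on each array, groups from control to T3R1, with control replicate 1 as the open circle. The fibrillar chains reach 1.98 in T3R1, and control replicate 1 lies at 1.32 for them, at 1.61 for the crosslinking genes and at 3.45 for the cell cycle genes.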

How the data were processed

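Heart RNA of 16 mice was labelled with Cy3 and read on Agilent one-colour arrays, per the labels. The authors' scanner files, made with Feature Extraction 10.7.3.1 per the file headers, give a background-subtracted intensity for each spot. A deposited table also holds log2 values; its ranks equal those of the mean signal intensity, its median is 6.10, and it served as an alternative.

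Members and gene lists were chosen with earlier results of these data known. Control spots and scanner outliers were removed, spots of a probe averaged, and log2 intensity taken relative to each array's 75th percentile. A probe was kept if well above background on all 4 arrays of a group (31390 of 55681), and a gene stands by its probe of highest mean. limma 3.58.1 in R 4.3.3 fitted all 4 groups (12 residual degrees of freedom), with Benjamini-Hochberg adjustment over 22763 features and a threshold of 0.05. The script was tested on simulated data with independent arrays. These held no array set apart and no slide difference, so that test does not bear on either. Values by array are given for 15 chains set by their class, and for chains past the threshold in a contrast or the F test (at most the 15 of smallest F test p); other chains are given by ranges. Labels say only that hearts came from separate mice, and the number of arrays limits the precision. Numbers shared between groups were checked for pairing and did not pair the arrays. Alternatives were background correction, scaling, filter, probe choice, samples fitted, array weights, a replicate block and leaving out arrays.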

Additional observations from a re-analysis of the deposited data

Results flagged for a closer look

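Each named chain was looked at in each group of 4 arrays. The chains share these arrays, so the groups looked at are not independent, and their count was not set against chance. Apart means that an array's gap to the nearest of its group, over the group's range, was above the limit of Dixon's test. An array lay apart from the other 3 of its group in 15 of 96 groups looked at. Control replicate 1 was that array in 12 chains, with gaps over range of Col18a1 0.916, Col1a1 0.965, Col1a2 0.915, Col20a1 0.83, Col3a1 0.888, Col4a5 0.865, Col5a1 0.969, Col5a2 0.929, Col6a1 0.928, Col6a2 0.962, Col6a3 0.928 and Col8a1 0.83; it was the highest of the controls in each but Col20a1, where it was the lowest. T3R1 replicate 1 was apart and highest in Col6a1 (0.841) and Col6a2 (0.884), and T1R1 replicate 1 was apart and lowest in Col8a1 (0.836).

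The effect against control differed between exposures where the contrast of the exposed groups itself passed. For T3R1 minus T1R1 the log2 differences were Col12a1 3.45, Col14a1 1.82, Col15a1 1.23, Col16a1 1.53, Col18a1 0.97, Col1a1 2.57, Col1a2 2.22, Col20a1 -0.49, Col22a1 -1.04, Col27a1 1.01, Col3a1 2.62, Col4a1 0.72, Col4a5 0.61, Col5a1 2.26, Col5a2 1.83, Col5a3 1.67, Col6a1 1.02, Col6a2 0.97, Col6a3 1.40, Col8a1 1.48, Col8a2 -1.06 and Col9a1 -0.50. For T3R1 minus T2R1 they were Col14a1 1.15, Col15a1 1.08, Col16a1 1.00, Col18a1 0.56, Col19a1 -1.35, Col1a1 1.50, Col1a2 1.47, Col20a1 -0.64, Col22a1 -0.72, Col27a1 0.86, Col4a4 -0.35, Col4a5 0.51, Col5a1 1.41, Col5a2 1.54, Col8a2 -1.21 and Col9a1 -0.83. Col12a1 was above background on 2 of 4 T1R1 arrays and Col19a1 on 1 of 4 T3R1 arrays, so the size of their differences is uncertain. Each of these contrasts crosses the slides, and the part of the slide cannot be told apart from that of the exposure.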

How the results depend on the processing

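In T3R1 against control the count of called chains (8) was 19 at an adjusted p under 0.1, 15 with the authors' deposited values, with the stricter filter (of 24) and with an intensity trend and robust prior, and 20 with array weights. It was 1 with median scaling, and 0 at 0.01 (21 with an unadjusted p under 0.05; limma called 8 features), with no filter (23 of 43; 16) and with only the 2 groups (21; 2). Alternatives chosen after seeing the data gave 20 with control replicate 1 and T1R1 replicate 1 left out together and 19 with the 2 groups without control replicate 1; leaving out 1 array gave 0 to 20.

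In T1R1 the count (1) was 5 at 0.1 and 3 with array weights, 7 (all lower) with median scaling and 2 (both lower) with the authors' values, 6 with both arrays left out, and 0 at 0.01, with normexp, the stricter filter, the mean of probes and only the 2 groups (7, 5, 6, 5 and 4 with an unadjusted p under 0.05; limma called 799 to 2231 features); leaving out 1 array gave 0 to 3, with 3 without control replicate 2 or T1R1 replicate 1. In T2R1 the count (4) was 2 with normexp, quantile normalization, median scaling and the authors' values, 17 with array weights and 15 with both arrays left out; leaving out 1 array gave 3 to 15. In T3R1 against T2R1 it was 10 at 0.01. Leaving out 1 array gave 18 to 23 for T3R1 against T1R1, 12 to 22 for T3R1 against T2R1, 20 to 25 for the F test and 0 for T2R1 against T1R1.

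Median differences moved with median scaling, to -0.45 in T1R1, -0.037 in T2R1, 1.37 in T3R1 against T1R1 and 0.88 in T3R1 against T2R1, where those of all features were -0.44, -0.37, 0.33 and 0.26. With no filter they were 0.45 in T3R1 against control and 0.38 in T3R1 against T1R1. Leaving out 1 array gave -0.09 to 0.18 in T1R1, 0.29 to 0.62 in T2R1, 0.71 to 0.98 in T3R1, 0.23 to 0.34 in T2R1 against T1R1, 0.70 to 1.02 in T3R1 against T1R1 and 0.43 to 0.58 in T3R1 against T2R1.

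Over the alternatives, signs of named chains not called turned in 58 of 642 values in T1R1 and 22 of 558 in T2R1, each against control. In T2R1 against T1R1 they turned in 9 of 669. The directions of uncalled chains in these contrasts are therefore not settled. Among all named chains in T3R1 and those called in T1R1 or T2R1, each against control, 2 turned sign. Col8a2 read -0.31, -0.62 and -0.014 in T1R1 with normexp, the authors' values (where it passed as lower) and the mean of probes, -0.23 and -0.51 in T2R1 with normexp and the authors' values, and 0.53, 0.67 and 0.42 in T3R1; without T1R1 replicate 2, which drops its standing probe, it read -0.47, -0.53 and 1.12, and leaving out 1 array gave ranges of -0.47 to 0.96, -0.53 to 1.01 and -0.38 to 1.12. Col9a1 in T3R1 was 0.0085 with the authors' values, and leaving out 1 array gave -0.17 to 0.054, positive without control replicate 2 or T3R1 replicate 1. Correlations turned for Col4a3 with Col4a4 (-0.102 with quantile normalization, -0.124 on slide 1), Col4a5 with Col4a6 (-0.062 without 2 arrays, -0.370 on slide 2) and Col9a1 with Col9a2 (0.169 and 0.151). They no longer passed for Col5a1 with Col5a2 on slide 1 (0.991) and slide 2 (0.895), Col6a1 with Col6a2 on slide 1 (0.982), and Col6a1 with Col6a3 without 2 arrays (0.587) and on slide 2 (0.453). The causes were not tested.

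With a replicate block 1 chain was called in T3R1 and 2 in T1R1 (1 higher, 1 lower). The numbers do not pair the arrays: same-numbered deviations correlated between -0.324 and 0.391, and 2 of 16 arrays correlated best with their own number. Dim probes limit Col4a3, Col11a2 and Col19a1, above background on 10, 12 and 11 arrays. Of the 12 other tested probes of these collagen genes, 6 had the sign of the standing probe in T1R1, 6 in T2R1 and 11 in T3R1, each against control.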
